A study of Mus musculus with 8 samples.

Results

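The genes described here build, trim and break down the sugar chains of glycoproteins and glycolipids: the enzymes that make, activate and degrade sialic acid, and the Golgi enzymes that add sialic acid, galactose, N-acetylglucosamine, N-acetylgalactosamine and fucose. Members were chosen by symbol, as the families St3gal, St6gal, St8sia, Galnt, B3galt, B4galt, B3gnt, B4galnt, Fut, Mgat and Gcnt together with Npl, Neu1, Neu2, Neu3, Cmas, Nans, Gne, Cmah and C1galt1. They take up 99 of the 22274 rows of the deposited table, and St6galnac2 stands there under 2 gene IDs. RNA was sequenced from a mouse kidney cell line labelled RFB, a fibroblast line per its label; TGF-β, a cytokine known for driving matrix production in fibroblasts, was given to all of them. The ad-CRE group (n = 4 libraries) had received TGF-β and an adenovirus labelled for Cre, a recombinase that cuts out DNA flanked by loxP sites. The ad-GFP group (n = 4) had received TGF-β and an adenovirus labelled for GFP, a fluorescent protein, so that both groups carried a virus and the cytokine. The study's title and design text name the histone H3 methyltransferase Suv39h1 as the gene targeted, while the labels state neither which floxed allele the cells carry nor whether the line is 1 clone.

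Sialic acids are charged sugars that end many cell-surface chains. They are built in the cytosol by a short route through Gne and Nans, activated by Cmas in the nucleus, carried into the Golgi, and added there by sialyltransferases to galactose, to N-acetylgalactosamine or to another sialic acid. Neuraminidases take them off again and Npl splits the free sugar. The chains beneath are laid down by the Mgat branching enzymes on N-glycans, by the Galnt enzymes on serine and threonine, and by the galactosyl- and N-acetylglucosaminyltransferases that lengthen them. In kidney, sialylated chains are best known from the charged coat of podocytes and from tubular cell surfaces.

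Total counts were 17572152 to 22297598 in ad-CRE libraries and 15998257 to 20920828 in ad-GFP libraries. Levels are given as CPM, counts scaled to library size after TMM correction, or as the deposited FPKM, which is also scaled by gene length and is used wherever different genes are compared. Suv39h1 had 32.3, 32.9, 33.4 and 31.6 CPM in ad-CRE libraries, against 37.2, 43.6, 44.1 and 41.3 CPM in ad-GFP libraries, a log2 fold change of -0.35 (SE 0.053, adjusted p = 8.65e-07). Smarca4, an ATPase of chromatin remodelling complexes singled out after its values were seen, had 34.3 ± 3.2 CPM in ad-CRE and 288 ± 11.1 CPM in ad-GFP libraries (SD, n = 4 each). Of the 12 fibroblast markers 10 were tested, of which 9 were lower and 1 was higher in ad-CRE, and Lum was at or near 0. The 12 summed to 789 to 849 CPM in ad-CRE and 1850 to 1950 CPM in ad-GFP libraries. Most of that sum was Vim, at 693 ± 26 CPM in ad-CRE and 1610 ± 36.4 CPM in ad-GFP libraries. The 10 tubular epithelial markers summed to 5100 to 5270 CPM in ad-CRE and 2280 to 2540 CPM in ad-GFP libraries, with 8 higher, 1 lower and 1 not past the test. Krt8, Krt18 and Cldn4 made up most of this sum. They averaged 1980, 957 and 945 CPM in ad-CRE, against 745, 459 and 344 CPM in ad-GFP libraries. Cdh16 was the lower one (138 CPM in ad-CRE and 218 CPM in ad-GFP libraries), Krt19 did not pass, and Pax8 rose little (log2 0.12). Tubular epithelial markers were thus present in a line labelled fibroblast. The 6 endothelial markers summed to 61.1 to 69.2 CPM in ad-CRE and 134 to 147 CPM in ad-GFP libraries (6 lower). The 8 leukocyte markers summed to 124 to 130 CPM in ad-CRE and 177 to 200 CPM in ad-GFP libraries (5 lower of 6 tested, Cd3e at 0 in every library). Like many member genes below, which went in both directions, most of these markers differed between the groups. Their part in the results for members was not tested. In bulk RNA a smaller number of cells of a type and less RNA per cell cannot be told apart.

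For reference beside the values, the RefSeq promoters (250 bases before to 50 bases after a gene's start, GRCm38.p6, printed 5′ to 3′ on the gene's own strand) are shown for the lyase Npl, for B4galt4 and B4galnt3, the chain enzymes that rose most among those tested, and for the 2 polysialyltransferases, St8sia2 and St8sia4, which moved in opposite directions. Capitals mark a GC box (GGGCGG, or CCGCCC on the other strand) or an E-box (CACGTG). Of 98 member symbols 74 had a promoter in the table.
Npl, chr1:153549665-153549964, minus strand: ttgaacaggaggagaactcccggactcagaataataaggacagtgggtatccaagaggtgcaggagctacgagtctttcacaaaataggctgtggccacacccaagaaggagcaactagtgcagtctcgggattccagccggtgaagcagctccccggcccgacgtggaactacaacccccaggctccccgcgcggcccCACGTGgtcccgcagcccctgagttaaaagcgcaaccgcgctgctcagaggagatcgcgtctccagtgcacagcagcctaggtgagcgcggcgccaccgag
B4galt4, chr16:38742009-38742308, plus strand: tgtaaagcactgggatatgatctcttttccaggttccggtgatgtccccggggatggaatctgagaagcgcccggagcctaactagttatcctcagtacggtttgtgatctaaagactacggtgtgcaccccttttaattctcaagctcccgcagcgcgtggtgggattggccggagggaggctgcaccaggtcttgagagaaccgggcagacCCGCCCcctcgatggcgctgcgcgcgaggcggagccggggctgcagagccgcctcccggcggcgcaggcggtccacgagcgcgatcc
B4galnt3, chr6:120294848-120295147, minus strand: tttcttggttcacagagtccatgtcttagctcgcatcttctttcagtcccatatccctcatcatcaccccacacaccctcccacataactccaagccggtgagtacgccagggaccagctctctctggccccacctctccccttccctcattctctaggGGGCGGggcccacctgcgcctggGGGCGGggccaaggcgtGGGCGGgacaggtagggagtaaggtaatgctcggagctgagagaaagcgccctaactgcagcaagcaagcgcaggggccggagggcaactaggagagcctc
St8sia2, chr7:74013633-74013932, minus strand: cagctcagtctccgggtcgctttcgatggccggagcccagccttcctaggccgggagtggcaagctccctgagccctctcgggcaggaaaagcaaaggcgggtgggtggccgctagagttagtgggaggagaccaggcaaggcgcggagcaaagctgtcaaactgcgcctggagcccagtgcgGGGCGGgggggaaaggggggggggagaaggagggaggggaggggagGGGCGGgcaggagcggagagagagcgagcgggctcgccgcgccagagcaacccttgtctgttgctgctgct
St8sia4, chr1:95667545-95667844, minus strand: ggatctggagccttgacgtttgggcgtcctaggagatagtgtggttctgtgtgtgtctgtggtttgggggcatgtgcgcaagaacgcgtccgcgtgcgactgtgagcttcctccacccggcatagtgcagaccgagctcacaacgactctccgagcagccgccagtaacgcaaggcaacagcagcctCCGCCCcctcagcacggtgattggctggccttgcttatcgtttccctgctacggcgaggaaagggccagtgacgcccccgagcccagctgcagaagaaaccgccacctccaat

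A GC box, searched on both strands, was found in 35.7% of 32851 promoters of the table and in 53 of 104 promoters of members (51.0%). It stood in 22 of 40 promoters of members called higher in ad-CRE and in 13 of 22 promoters of members called lower, and of the genes printed above, B4galnt3 held 3 copies, St8sia2 held 2, and B4galt4 and St8sia4 held 1 each. The E-box of Npl lies 51 to 46 bases before the start, and 7.15% of all promoters and 6.73% of members' promoters hold one. An AP-1 motif (TGANTCA) was in 7.81% of all promoters and 8.65% of members' promoters, a TEAD motif (GGAATG) in 14.7% and 17.3%, an interferon-stimulated response element (ISRE) in 3.44% and 0.962%, and a TATA box (TATAAA) in 13.6% and 3.85%. The 32851 promoters were taken whether or not their genes had reads here, and were not matched to members in base composition. Differences between these shares were not tested. A match describes these letters in this window and is not a measured binding site.

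Of the 99 rows 78 passed the filter on low counts, and 71.8% of these were called, 37 higher and 19 lower in ad-CRE (adjusted p under 0.05), beside 73.1% of all 13702 genes tested. The share of all genes called was 36.8% for higher and 36.3% for lower. The median log2 fold change of the 78 was 0.16 (interquartile range -0.26 to 0.54), beside 0.00 for all genes tested, and the median absolute change was 0.39, beside 0.32. The groups did not overlap in 51 of the 78 (65.4%), beside 66.2% of all genes. Of the 78, 17 (21.8%, beside 14.3% of all genes) were called with a log2 fold change of 1 or more in size: 10 were higher (12.8%, beside 4.84% of all genes) and 7 lower (8.97%, beside 9.43%). The share of members called is thus near that of the table, and the description below rests on which enzymes moved, in which direction and by how much. Counts of called genes in the role groups and lists below are to be read beside these shares of all genes. A filter CPM of 0.516 was reached in every library of both groups by 68 of the 78; Neu2, Mgat5b, B3gnt4 and B4galnt4 reached it in every ad-CRE library but not in every ad-GFP library. These 4 are among the 10 members higher by 1 log2 unit or more, and such genes could enter the test through the ad-CRE libraries alone, so their share of 12.8% is a description and nothing is read from it.

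**Figure D1:**
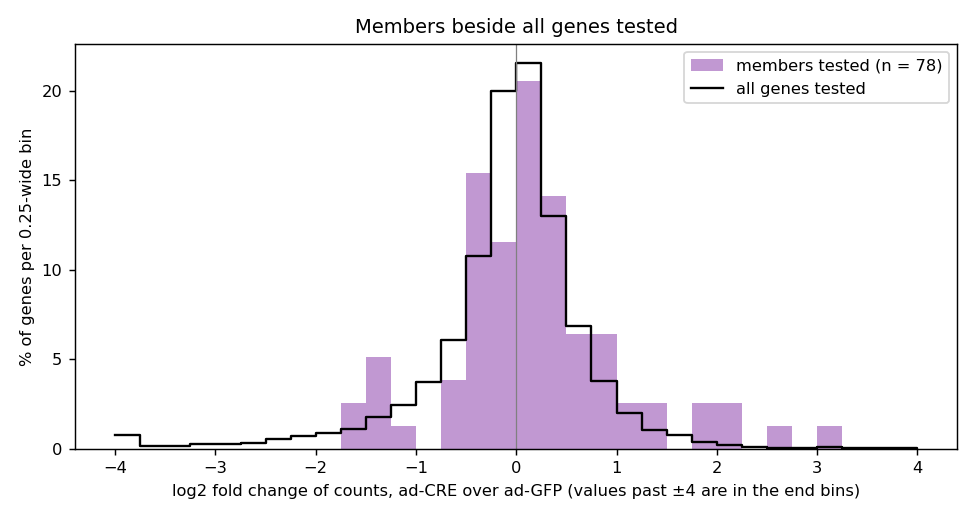
Distribution of log2 fold changes (ad-CRE over ad-GFP) of the 78 members tested (bars) beside all 13702 genes tested (line), as % of genes per bin; values past 4 in either direction are in the end bins. The bars past 1 log2 unit hold 10 members on the right and 7 on the left.

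**Figure D2:**
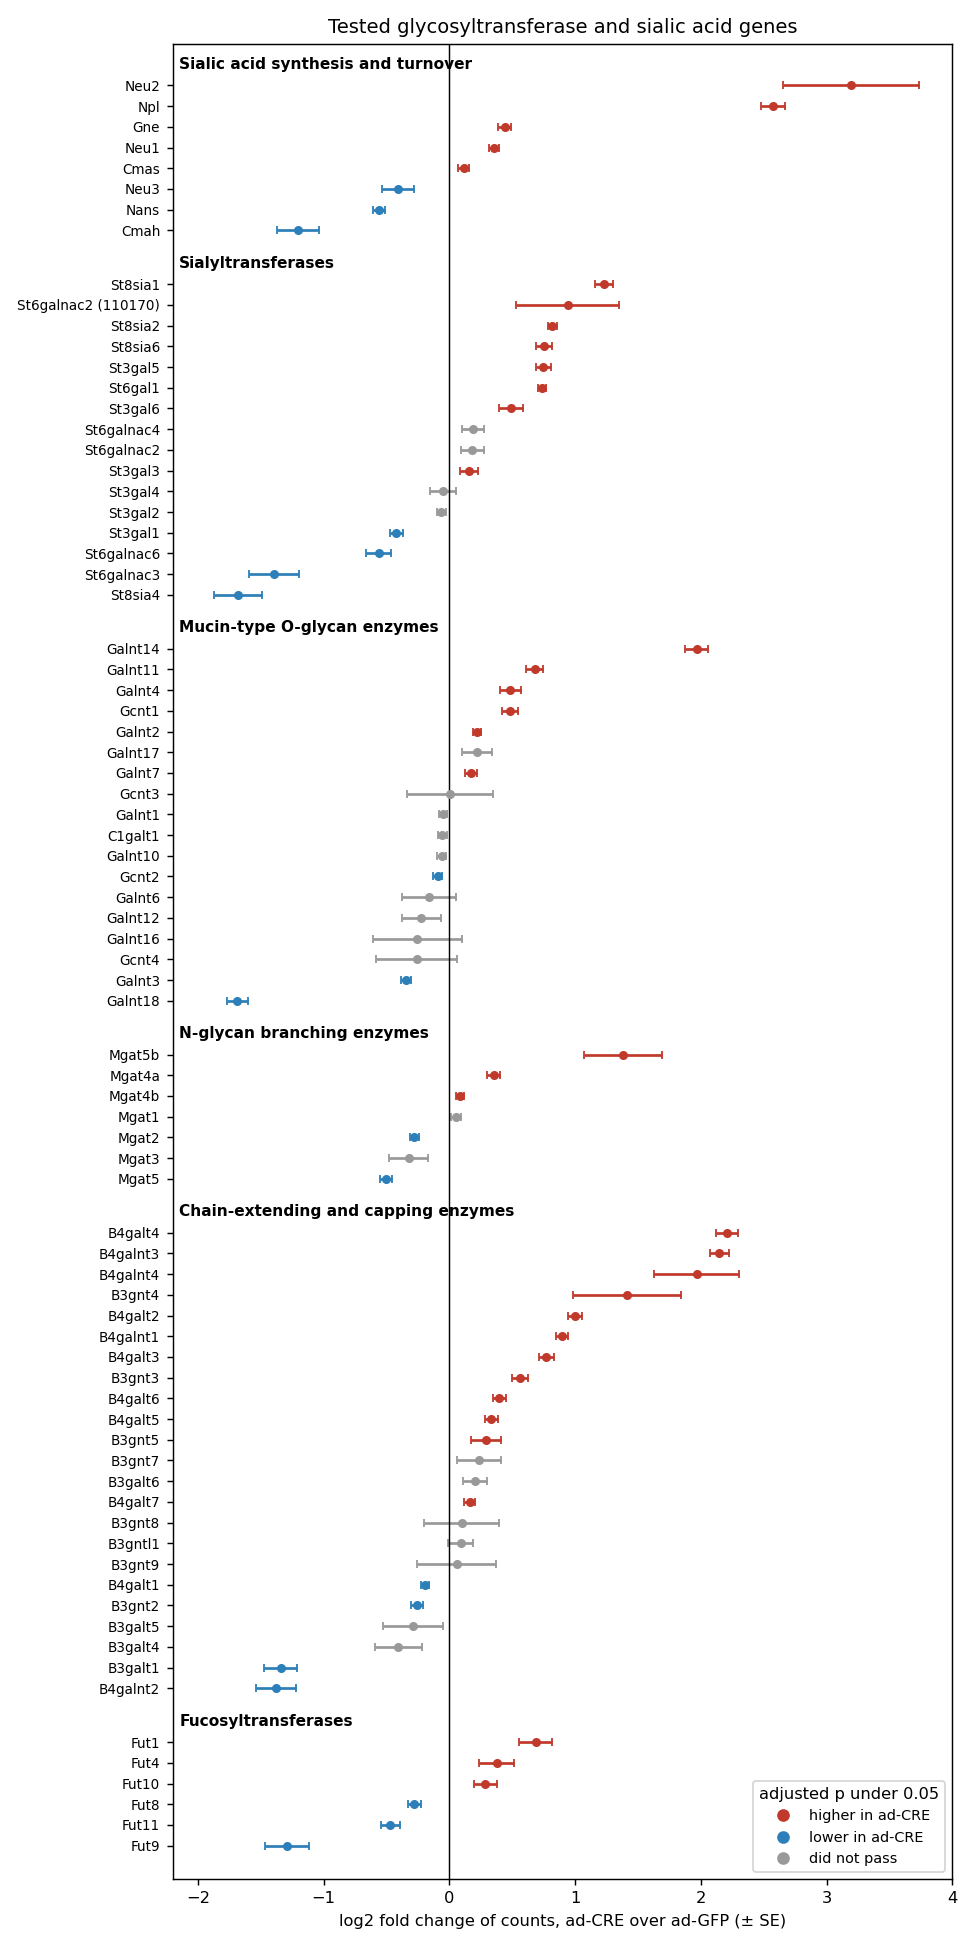
Log2 fold change of counts (ad-CRE over ad-GFP, x axis; point and SE) for each tested member, ordered within 6 role groups; red is higher in ad-CRE, blue lower and grey not past an adjusted p of 0.05. Each role group holds members on both sides of 0, and the range runs from -1.69 (Galnt18) to 3.20 (Neu2).

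All 8 genes of sialic acid synthesis and turnover passed the test, beside 73.1% of all genes tested. In ad-CRE 5 were higher and 3 lower, with a median log2 fold change of 0.23. The higher ones include Neu2, which could enter the test through the ad-CRE libraries alone. Nothing is therefore read from its passing or from the full share. The greatest change among well-measured genes was in Npl, the lyase that splits free sialic acid into N-acetylmannosamine and pyruvate (ENSMUSG00000042684, chromosome 1, 153503015 to 153550045, minus strand). Npl had 23.9, 22.5, 23.3 and 19.4 CPM in ad-CRE libraries, against 3.64, 3.67, 4.09 and 3.6 CPM in ad-GFP libraries. The lowest ad-CRE library stood well above the highest ad-GFP library, and the fold change was 5.95 (log2 2.57, SE 0.0934, adjusted p = 5.88e-21).

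The biosynthetic enzymes did not move together. Gne, the epimerase and kinase that opens the route, averaged 39.1 CPM in ad-CRE and 28.8 CPM in ad-GFP libraries (log2 0.44, adjusted p = 5.01e-09). Its FPKM differed less, at 11.9 in ad-CRE and 10.7 in ad-GFP libraries, a log2 ratio of 0.15. On that scale the groups overlapped (11.36 FPKM in ad-CRE 1 and 11.52 FPKM in ad-GFP 1). Nans, which joins the N-acetylmannosamine phosphate to phosphoenolpyruvate, was lower, at 40.7, 43.8, 42.4 and 39.9 CPM in ad-CRE, against 64.9, 60.9, 61.6 and 58.0 CPM in ad-GFP libraries (log2 -0.56, adjusted p = 2.82e-12). On the other strand, Trim14 overlaps 29.6% of the exonic bases of Nans, and it had 0.513 CPM in ad-CRE and 3.79 CPM in ad-GFP libraries. Cmas, which activates sialic acid to its CMP form, changed little, with a log2 fold change of 0.11 (adjusted p = 0.0201). Cmah, which turns the activated sugar into its glycolyl form, had 2.53, 2.19, 1.8 and 1.9 CPM in ad-CRE, against 4.59, 4.85, 6.05 and 4.04 CPM in ad-GFP libraries (log2 -1.21, SE 0.165, adjusted p = 1.39e-07). Each ad-CRE library of Cmah lay below each ad-GFP library.

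The neuraminidases also diverged. Neu1, the lysosomal enzyme and the most abundant of them per length (32.4 ± 1.48 FPKM in ad-CRE and 25.8 ± 1.22 FPKM in ad-GFP libraries, SD, n = 4), had 82.4, 84.9, 80.5 and 76.4 CPM in ad-CRE, against 62.0, 67.8, 62.0 and 61.7 CPM in ad-GFP libraries (log2 0.36, SE 0.0414, adjusted p = 6.75e-09). Neu3, the plasma membrane enzyme known for acting on gangliosides, was called lower with overlapping groups (log2 -0.41, adjusted p = 0.00483). Neu2, the cytosolic enzyme, was present at trace level, with 21, 10, 20 and 13 reads in ad-CRE libraries, against 0, 4, 2 and 0 reads in ad-GFP libraries (log2 3.20, SE 0.542, adjusted p = 4.98e-06). Its log2 fold change lay between 2.75 (without ad-GFP 1) and 4.21 (without ad-GFP 2) when single libraries were left out. Because Neu2 could enter the test through the ad-CRE libraries alone, its adjusted p is given only as a description.

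Of 9 genes beside this route that are not members, Neu4 was at 0 in every library. Of the 8 tested 4 were higher and 4 lower (median log2 fold change -0.09), beside 73.1% of all genes tested that were called. Slc17a5, the lysosomal exporter of free sialic acid, averaged 35.1 ± 1.09 CPM in ad-CRE and 16.3 ± 1.27 CPM in ad-GFP libraries (log2 1.11, adjusted p = 9.66e-17). Slc35a1, the Golgi carrier of CMP-sialic acid, was also higher (log2 0.30). Renbp, an epimerase of N-acetylglucosamine and N-acetylmannosamine, was lower at 23.4 ± 0.963 CPM in ad-CRE and 47.0 ± 1.86 CPM in ad-GFP libraries (log2 -1.001, adjusted p = 2.89e-17). Ctsa, the lysosomal partner that Neu1 needs for activity, was lower by a smaller amount (log2 -0.31, adjusted p = 2.58e-10).

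Of the 21 sialyltransferase rows 16 were tested, with 8 higher, 4 lower and 4 not past the test (median log2 fold change 0.19). The enzymes that attach sialic acid to sialic acid split into opposite directions. St8sia2, one of the pair that builds polysialic acid chains on carriers such as NCAM (ENSMUSG00000025789, chromosome 7, 73939119 to 74013690, minus strand), had 164, 156, 163 and 151 CPM in ad-CRE, against 94.5, 90.4, 90.0 and 84.5 CPM in ad-GFP libraries. Its groups were far apart, with a log2 fold change of 0.82 (SE 0.0358, adjusted p = 7.41e-19). The other polysialyltransferase, St8sia4 (ENSMUSG00000040710, chromosome 1, 95587682 to 95667571, minus strand), had 1.04, 1.2, 0.972 and 1.09 CPM in ad-CRE, against 3.5, 3.21, 3.98 and 3.11 CPM in ad-GFP libraries. It was lower in every ad-CRE library (log2 -1.68, SE 0.191, adjusted p = 4.09e-09). Per length St8sia2 was much the more abundant of the pair in both groups, at 30.1 ± 0.82 FPKM in ad-CRE and 17.7 ± 0.599 FPKM in ad-GFP libraries, while St8sia4 averaged 0.198 FPKM in ad-CRE and 0.637 FPKM in ad-GFP libraries.

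St8sia1, the GD3 synthase that adds a further sialic acid to the ganglioside GM3, had 26.6, 25.2, 25.3 and 24.5 CPM in ad-CRE, against 10.7, 11.8, 11.7 and 9.07 CPM in ad-GFP libraries (log2 1.23, SE 0.0719, adjusted p = 1.04e-15). Each ad-CRE library stood above each ad-GFP library. St8sia6, known for adding sialic acid to sialylated O-glycans, was also higher (log2 0.75, adjusted p = 1.15e-11). The 6 genes of this class, of which St8sia3 was at 0 in every library and St8sia5 at 0 to 2 reads, summed to 36.0 ± 0.948 FPKM in ad-CRE and 21.6 ± 0.619 FPKM in ad-GFP libraries, a ratio of 1.67, and St8sia2 made up 83.6% of the ad-CRE sum and 81.9% of the ad-GFP sum.

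Among enzymes that cap galactose, St6gal1, the main sialyltransferase of N-glycan ends in many tissues, averaged 26.0 FPKM in ad-CRE and 16.1 FPKM in ad-GFP libraries (log2 on counts 0.74, SE 0.0341, adjusted p = 2.94e-18). Its relative St6gal2 was not tested because of low counts, and had 12, 16, 13 and 8 reads in ad-CRE, against 1, 0, 0 and 3 reads in ad-GFP libraries. The St3gal family divided: St3gal5, the GM3 synthase, was higher (log2 0.75, adjusted p = 2.86e-12), as was St3gal6 (log2 0.49, adjusted p = 5.49e-05), while St3gal1, which caps core 1 O-glycans, was lower (log2 -0.42, adjusted p = 3.04e-08). Dcbld2, which runs over 26.0% of the exonic bases of St3gal6 on the other strand, was lower in ad-CRE (239 CPM in ad-CRE and 377 CPM in ad-GFP libraries). St3gal2, the most abundant of the family per length in both groups, averaged 18 FPKM in ad-CRE and 19.7 FPKM in ad-GFP libraries and did not pass (log2 -0.07, adjusted p = 0.123). It was called lower when counts were scaled by their totals (-0.09, adjusted p = 0.0299), under a filter of 5 CPM in 4 libraries (-0.09, 0.0316) and on the FPKM scales (-0.12, 0.0377 for log2(FPKM + 1)). St3gal4 did not pass either (log2 -0.05, adjusted p = 0.656). Summed over its 6 members the St3gal family had 58.5 ± 1.11 FPKM in ad-CRE and 53.8 ± 2.97 FPKM in ad-GFP libraries.

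The St6galnac enzymes, which add sialic acid to N-acetylgalactosamine or to the sialylated cores of O-glycans and gangliosides, were weakly expressed and summed to 9.88 ± 0.402 FPKM in ad-CRE and 11.8 ± 2.04 FPKM in ad-GFP libraries. St6galnac6 was lower (log2 -0.56, adjusted p = 9.52e-06). St6galnac3 had 1.27, 0.989, 0.972 and 1.5 CPM in ad-CRE, against 2.79, 3.06, 2.94 and 3.66 CPM in ad-GFP libraries, a log2 fold change of -1.40 (SE 0.20, adjusted p = 3.13e-07). Its deposited FPKM do not follow these counts, at 0.73, 0.19, 0.68 and 0.48 in ad-CRE and 0.37, 0.38, 1.01 and 0.45 in ad-GFP libraries, and the change was -0.03 (adjusted p = 0.88) on the log2(FPKM + 1) scale. St6galnac4 (log2 0.19, adjusted p = 0.0637) and the first ID of St6galnac2 (ENSMUSG00000057286, log2 0.18, adjusted p = 0.0758) did not pass. The second ID of St6galnac2 (ENSMUSG00000110170), which shares 383 exonic bases with the first, had at most 0.676 CPM in any library and was called higher (log2 0.94, adjusted p = 0.0399).

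**Figure D3:**
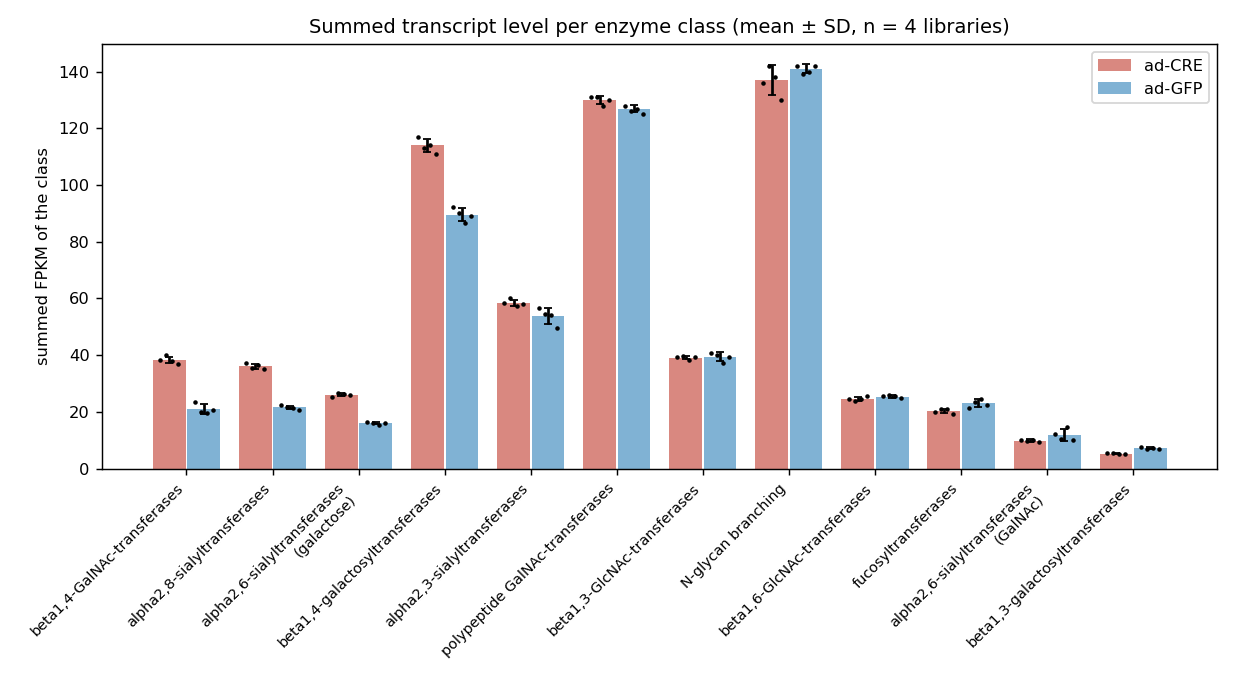
Summed deposited FPKM of the members of 12 enzyme classes (y axis; bars are means, error bars SD, points the 4 libraries per group; ad-CRE red, ad-GFP blue), ordered by the ratio of ad-CRE to ad-GFP. The β1,4-GalNAc-transferases (ratio 1.83), α2,8-sialyltransferases (1.67) and α2,6-sialyltransferases that act on galactose (1.62) lead on the left, and the β1,3-galactosyltransferases (0.725) close on the right.

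Enzymes known to act on gangliosides, the sialylated glycolipids, and on their precursors moved in both directions; they were brought together after their values were seen and are given gene by gene. As given above, St3gal5 and St8sia1 were higher, St6galnac3, St6galnac6 and Neu3 were lower on counts, and St3gal2 did not pass. Ugcg, which makes glucosylceramide and is not a member, averaged 106 ± 0.721 CPM in ad-CRE and 69.7 ± 2.31 CPM in ad-GFP libraries (log2 0.61, adjusted p = 7.76e-16). The lactosylceramide synthases B4galt5 (log2 0.33, adjusted p = 1.45e-06) and B4galt6 (log2 0.40, adjusted p = 9.43e-08) were higher on counts. On the FPKM scale the change of B4galt5 was -0.03 (adjusted p = 0.863 for log2(FPKM + 1)). B4galnt1, which makes GM2 and GD2, averaged 27.3 FPKM in ad-CRE and 14.9 FPKM in ad-GFP libraries (log2 on counts 0.90, SE 0.0475, adjusted p = 8.95e-17). Slc26a10, on the other strand over 20.7% of the exonic bases of B4galnt1, had 1.11 CPM in ad-CRE and 0.676 CPM in ad-GFP libraries. B3galt4, which adds the next galactose, had -0.41 and did not pass (adjusted p = 0.0542). A4galt, which leads lactosylceramide into the globo series and is not a member, was lower at 0.534 ± 0.0365 CPM in ad-CRE and 1.19 ± 0.24 CPM in ad-GFP libraries (log2 -1.14, adjusted p = 0.000688).

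Of the 25 genes of mucin-type O-glycans 18 were tested, with 6 higher, 3 lower and 9 not past the test (median log2 fold change -0.05). The Galnt enzymes, which start these glycans by adding N-acetylgalactosamine to serine or threonine, kept nearly the same summed level, at 130 ± 1.31 FPKM in ad-CRE and 127 ± 1.29 FPKM in ad-GFP libraries over 19 genes. Within that sum 2 members moved strongly in opposite directions. Galnt14 (ENSMUSG00000024064, chromosome 17, 73493228 to 73710453, minus strand) had 29.2, 30.3, 28.3 and 30.9 CPM in ad-CRE, against 8.47, 6.84, 5.48 and 9.57 CPM in ad-GFP libraries, 3.91-fold higher (log2 1.97, SE 0.0904, adjusted p = 2.45e-18). Galnt18 (ENSMUSG00000038296, chromosome 7, 111471661 to 111779977, minus strand) had 7.15, 5.67, 7.54 and 6.22 CPM in ad-CRE, against 23.0, 21.4, 21.1 and 20.6 CPM in ad-GFP libraries (log2 -1.69, SE 0.0839, adjusted p = 1.77e-17). Neither gene's groups overlapped. Their FPKM were 11.9 in ad-CRE and 3.07 in ad-GFP libraries for Galnt14, and 2.60 in ad-CRE and 8.58 in ad-GFP libraries for Galnt18.

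The most abundant Galnt genes per length changed little. Galnt2 had 130, 132, 134 and 131 CPM in ad-CRE, against 117, 110, 115 and 108 CPM in ad-GFP libraries (log2 0.22, SE 0.0324, adjusted p = 4.13e-07); the annotation places 90% of its exonic bases also in the readthrough model Gm20388. Galnt1 had 110, 104, 104 and 108 CPM in ad-CRE, against 105, 113, 113 and 110 CPM in ad-GFP libraries, and did not pass (log2 -0.05, adjusted p = 0.181). The remaining calls were Galnt11 (log2 0.68), Galnt4 (0.48) and Galnt7 (0.17), higher, and Galnt3 (-0.35), known for protecting the hormone FGF23 in bone, lower. Of the enzymes that build the cores, C1galt1, the core 1 synthase, did not pass (log2 -0.06, adjusted p = 0.14). Gcnt1, the main core 2 enzyme, was higher (log2 0.48, adjusted p = 8.92e-08). Gcnt2, placed in this group by its symbol, branches chains of repeated lactosamine units. It was called lower by 0.09 on the log2 scale with overlapping groups. Galnt6, Galnt10, Galnt12, Galnt16, Galnt17, Gcnt3 and Gcnt4 did not pass, with log2 fold changes from -0.26 (Gcnt4) to 0.22 (Galnt17).

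Of the 11 genes of N-glycan branching 7 were tested, with 3 higher, 2 lower and 2 not past the test (median log2 fold change 0.05), and their summed level was 137 ± 5.31 FPKM in ad-CRE and 141 ± 1.63 FPKM in ad-GFP libraries. Mgat4b, which starts one of the outer branches and had the highest FPKM of any member (70.3 ± 2.64 in ad-CRE and 67.6 ± 1.21 in ad-GFP libraries), had 173, 177, 177 and 164 CPM in ad-CRE, against 166, 160, 160 and 164 CPM in ad-GFP libraries. These groups overlapped, and the change was 0.08 (adjusted p = 0.0149). Mgat2, needed for every complex N-glycan, had 75, 76.3, 71.5 and 74.1 CPM in ad-CRE, against 90.4, 90.5, 89.5 and 89.8 CPM in ad-GFP libraries (log2 -0.28, SE 0.0353, adjusted p = 3.05e-08). Mgat5, which adds the branch on which long lactosamine chains are preferentially built, was lower in every ad-CRE library, at 38.9, 38.3, 39.2 and 41.3 CPM in ad-CRE, against 60.2, 53.3, 55.9 and 53.2 CPM in ad-GFP libraries (log2 -0.50, SE 0.0475, adjusted p = 8.75e-11). Its relative Mgat5b, known for branching O-mannose glycans in brain, was higher at a low level, with 1.13, 1.2, 1.3 and 0.864 CPM in ad-CRE, against 0.615, 0.459, 0.288 and 0.311 CPM in ad-GFP libraries (log2 1.38, SE 0.312, adjusted p = 0.000233). Mgat5b could enter the test through the ad-CRE libraries alone, so nothing is read from its passing. Mgat4a was higher (log2 0.35). Mgat1, which commits a chain to the complex route, had 0.05 (adjusted p = 0.257), and Mgat3, which adds the bisecting residue, had -0.33 (adjusted p = 0.0595); neither passed.

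Among the transferases that passed the filter, the greatest rises were in the chain-extending and capping enzymes. Of these, 23 of 26 genes were tested, with 12 higher, 4 lower and 7 not past the test (median log2 fold change 0.24). The higher ones include B3gnt4 and B4galnt4, which could enter the test through the ad-CRE libraries alone, so nothing is read from their passing. B4galt4, a galactosyltransferase known for acting on sulfated chains (ENSMUSG00000022793, chromosome 16, 38742264 to 38769049, plus strand), had 18.5, 19.8, 20 and 20.5 CPM in ad-CRE, against 4.69, 4.13, 4.09 and 4.04 CPM in ad-GFP libraries, 4.62-fold higher (log2 2.21, SE 0.0884, adjusted p = 7.17e-20). B4galnt3, which builds the LacdiNAc ending (ENSMUSG00000041372, chromosome 6, 120203073 to 120294559, minus strand), had 31.7, 32.7, 32.0 and 29.8 CPM in ad-CRE, against 8.09, 7.19, 6.98 and 5.96 CPM in ad-GFP libraries, 4.43-fold higher (log2 2.15, SE 0.0741, adjusted p = 1.63e-21). In both genes the ad-CRE libraries lay far above all ad-GFP libraries. B4galnt4, which makes the same ending, was higher at a trace level, with 1.31, 1.09, 1.25 and 1.5 CPM in ad-CRE, against 0.237, 0.51, 0.115 and 0.435 CPM in ad-GFP libraries (log2 1.97, adjusted p = 5.69e-06). B4galnt2, which makes the Sda antigen, went the other way, with 2.62, 1.93, 2.54 and 2.82 CPM in ad-CRE, against 8.24, 5.61, 5.25 and 6.65 CPM in ad-GFP libraries (log2 -1.38, SE 0.157, adjusted p = 4.1e-09). The 4 genes of this family summed to 38.3 ± 1.18 FPKM in ad-CRE and 20.9 ± 1.82 FPKM in ad-GFP libraries, and B4galnt1 made up 71.3% of the ad-CRE sum and 71.5% of the ad-GFP sum.

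The makeup of the galactosyltransferase family differed between the groups. B4galt1, the best known general enzyme of the family, had 102, 104, 103 and 103 CPM in ad-CRE, against 118, 116, 119 and 118 CPM in ad-GFP libraries (log2 -0.19, SE 0.0311, adjusted p = 2.39e-06), and it made up 22.5% of the family's FPKM in ad-CRE and 33.4% in ad-GFP libraries. B4galt2 had 30.1, 31.2, 31.9 and 32.0 CPM in ad-CRE, against 15.7, 16.0, 15.2 and 15.5 CPM in ad-GFP libraries (log2 1.001, SE 0.0566, adjusted p = 4.48e-16). B4galt3 averaged 27.9 ± 1.5 FPKM in ad-CRE and 16.0 ± 1.89 FPKM in ad-GFP libraries (log2 on counts 0.77, adjusted p = 7.87e-13). B4galt7, which acts on the linker of glycosaminoglycans, had a log2 fold change of 0.16 on counts (adjusted p = 0.00347) and was not called on the FPKM scales (0.09, adjusted p = 0.122 for log2(FPKM + 1)). The family of 7 summed to 114 ± 2.37 FPKM in ad-CRE and 89.5 ± 2.35 FPKM in ad-GFP libraries. Reads of B4galt2 and of B4galt3 can be shared with Ccdc24 (28.2% of exonic bases, same strand) and with Ppox (14.5%, other strand). Ccdc24 had 1.19 CPM in ad-CRE and 0.686 CPM in ad-GFP libraries, and was called higher with overlapping groups (adjusted p = 0.0378). Ppox was higher, at 11.6 CPM in ad-CRE and 6.04 CPM in ad-GFP libraries, where B4galt3 had 49.9 CPM and 29.2 CPM.

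B3galt1, known for type 1 chains, was lower, with 3.39, 3.33, 2.31 and 2.94 CPM in ad-CRE, against 8.38, 6.74, 7.73 and 7.52 CPM in ad-GFP libraries (log2 -1.34, SE 0.134, adjusted p = 2.52e-10). B3galt5 (log2 -0.29) and B3galt6 (0.20), a second enzyme of the glycosaminoglycan linker, did not pass. The 6 genes of that family summed to 5.23 ± 0.208 FPKM in ad-CRE and 7.21 ± 0.425 FPKM in ad-GFP libraries. Of the B3gnt enzymes, B3gnt2, the main builder of repeated lactosamine chains and the most abundant of them per length, was lower (log2 -0.26, adjusted p = 5.67e-06). The annotation places 58.6% of its exonic bases also in the protein-coding model Gm28048 on the same strand, so its reads cannot be assigned with certainty. B3gnt3, which extends core 1 O-glycans, was higher (log2 0.56, adjusted p = 3.14e-09). B3gnt4 (log2 1.41, adjusted p = 0.00415) shares 93.2% of its exonic bases with Diablo on the other strand. Diablo was itself higher (log2 0.26), and the same limit holds for reads of B3gnt4. B3gnt4 also could enter the test through the ad-CRE libraries alone. B3gnt5, which starts the lacto series of glycolipids, was called higher (log2 0.29, adjusted p = 0.0292). B3gnt7, B3gnt8, B3gnt9 and B3gntl1 did not pass (log2 0.06 to 0.24), and the 9 genes of the family kept a summed level of 39.1 ± 0.611 FPKM in ad-CRE and 39.4 ± 1.58 FPKM in ad-GFP libraries.

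Of the 8 fucosyltransferases 6 were tested and all 6 were called, beside 73.1% of all genes tested, with 3 higher and 3 lower (median log2 fold change 0.00). Fut8, the core fucosyltransferase of N-glycans, made up 49.5% of the family's FPKM in ad-CRE and 53.7% in ad-GFP libraries and was lower (log2 -0.28, SE 0.0507, adjusted p = 1.37e-05). Fut9, which makes the Lewis x ending, had 1.36, 1.3, 1.48 and 1.55 CPM in ad-CRE, against 3.55, 3.27, 3.75 and 3.42 CPM in ad-GFP libraries (log2 -1.29, SE 0.177, adjusted p = 1.28e-07), with no overlap. Fut4, which makes the same ending, was called higher with overlapping groups (log2 0.38, adjusted p = 0.0152). Fut1, which makes the H antigen, had 5.88, 6.19, 6.06 and 4.72 CPM in ad-CRE, against 3.69, 3.83, 3.4 and 3.29 CPM in ad-GFP libraries (log2 0.69, SE 0.132, adjusted p = 3.09e-05). Its FPKM overlapped, at 2.83, 2.75, 2.8 and 2.03 in ad-CRE and 1.6, 3.1, 3.56 and 1.57 in ad-GFP libraries (0.10 on the log2(FPKM + 1) scale, adjusted p = 0.638). Fut11 was lower (log2 -0.47) and Fut10 higher (0.29).

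**Figure D4:**
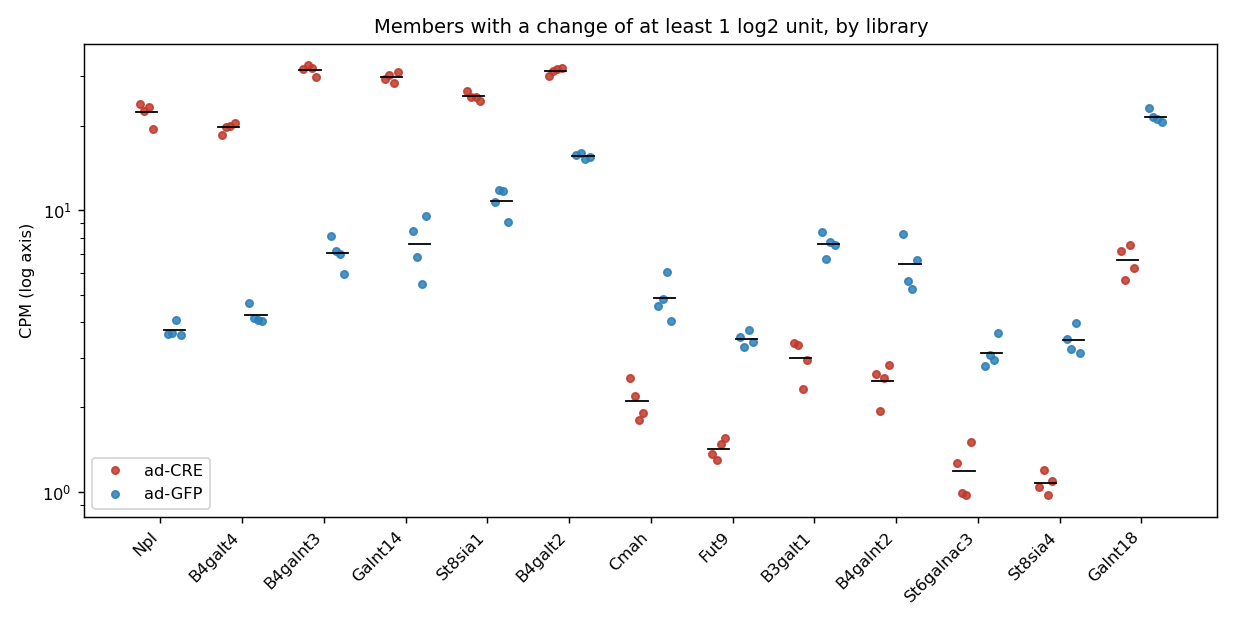
CPM in each library (log axis) of the 13 members past the test with non-overlapping groups, a change of at least 1 log2 unit and a mean log2 CPM of at least 1; ad-CRE (red) is left of ad-GFP (blue) and lines are means. Npl, B4galt4, B4galnt3, Galnt14, St8sia1 and B4galt2 are higher in every ad-CRE library, and Cmah, Fut9, B3galt1, B4galnt2, St6galnac3, St8sia4 and Galnt18 lower in every ad-CRE library.

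The genes that supply these enzymes were described from 3 further lists of genes that are not members. Of all genes tested, 36.8% were called higher and 36.3% lower. Of 24 genes of nucleotide sugar supply and transport, 7 were higher, 6 lower and 11 not past the test (median log2 fold change 0.03). Ugp2, which makes UDP-glucose, averaged 80.3 ± 3.35 CPM in ad-CRE and 195 ± 7.91 CPM in ad-GFP libraries (log2 -1.28, adjusted p = 5.18e-24), and Gnpnat1, of the UDP-N-acetylglucosamine route, was lower (log2 -0.73). Slc35a3, a Golgi carrier of UDP-N-acetylglucosamine, was higher (log2 0.41), as was Gfpt1, the first enzyme of the hexosamine route (log2 0.34). Its relative Gfpt2 was lower, at 1.3 CPM in ad-CRE and 2.74 CPM in ad-GFP libraries (log2 -1.09, adjusted p = 9.5e-06). Of 27 genes of N-glycan assembly and trimming, 15 were higher, 6 lower and 6 not past the test (median 0.17). Ganab, the catalytic subunit of glucosidase II, averaged 305 ± 6.37 CPM in ad-CRE and 192 ± 0.361 CPM in ad-GFP libraries (log2 0.67), and Alg10b, which adds the last glucose of the precursor, was higher (log2 0.55), while the Golgi mannosidases Man1a (log2 -0.98) and Man1c1 (-0.70) were lower. Of 17 tested genes among other glycosyltransferases and the core 1 chaperone, 9 were higher, 2 lower and 6 not past the test (median 0.09). Ugcg and Pomgnt1, an enzyme of O-mannose glycans (log2 0.47), had the smallest p-values among the higher ones, and A4galt and B3galnt2 (log2 -0.19) were the lower ones.

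Counts and FPKM of the 78 members were compared because FPKM can also depend on which transcripts the reads were assigned to. The counter behind the deposited FPKM was not given, and whether this holds here was not tested. The log2 ratio of mean FPKM differed from the log2 fold change of counts by over 0.5 in 3 members, St6galnac3, B3gnt8 and Fut1, beside 0.788% of all genes. B3gnt8 had 0.10 on counts (adjusted p = 0.777) and a log2 ratio of mean FPKM of -0.79. Bckdha on the other strand overlaps 18.1% of exonic bases of B3gnt8. Bckdha had 48.8 CPM in ad-CRE and 20.9 CPM in ad-GFP libraries, where B3gnt8 had 0.779 CPM and 0.739 CPM. Whether reads of Bckdha bear on B3gnt8 was not tested. The log2 fold change of St8sia1 was 1.23 on counts, while its FPKM averaged 2.85 in ad-CRE and 1.52 in ad-GFP libraries, a log2 ratio of 0.91.

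**Figure D5:**
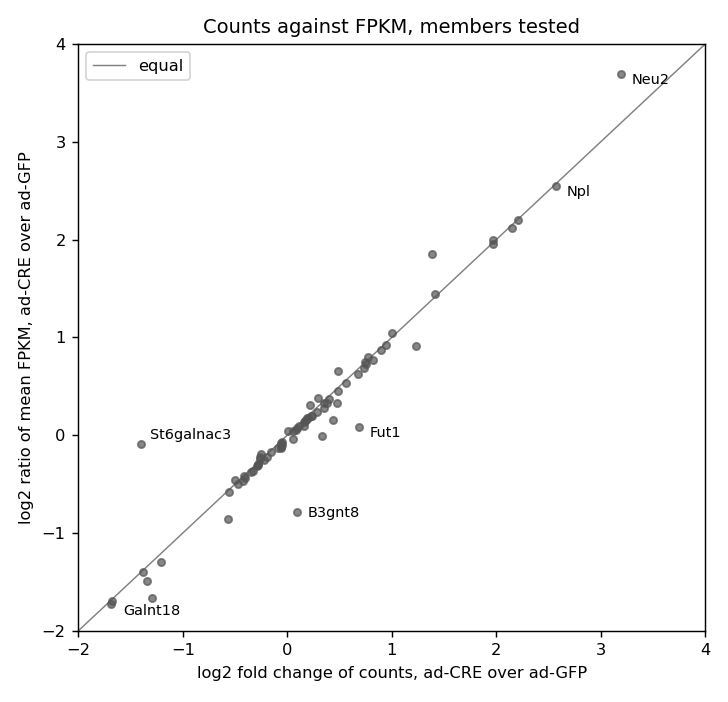
Log2 fold change of counts (x axis) against log2 ratio of the mean deposited FPKM (y axis), both ad-CRE over ad-GFP, for the tested members; the line marks equal values. St6galnac3 (-1.40 on counts, -0.09 on FPKM), Fut1 (0.69 and 0.08) and B3gnt8 (0.10 and -0.79) lie farthest from the line.

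Some calls near the threshold turned on single libraries. Cmas lost its call without ad-GFP 4 (0.10, adjusted p = 0.0564) or ad-CRE 1 (0.09, 0.0862). Mgat4b lost it without ad-CRE 2 (0.08, 0.0501) or ad-CRE 3 (0.07, 0.0536). Fut4 lost it without ad-GFP 1 (0.31), ad-GFP 2 (0.30) or ad-CRE 2 (0.32), with adjusted p of 0.0539 to 0.0665. St3gal3, called higher at 0.16 (adjusted p = 0.0416), lost it without any 1 of ad-GFP 2, 3 and 4 and ad-CRE 1, 3 and 4, and was 0.10 (adjusted p = 0.183) without ad-GFP 3. Gcnt2 lost it without any 1 of ad-GFP 1 and 2 and ad-CRE 1, 2 and 3 (-0.08 to -0.09, adjusted p 0.0554 to 0.0873). B3gnt5 lost it without any 1 of ad-GFP 2, 3 and 4 and ad-CRE 3 and 4 (0.25 to 0.28, adjusted p 0.0548 to 0.086). The second ID of St6galnac2 lost it without any 1 of ad-GFP 2 and 4 and ad-CRE 2, 3 and 4, and was lowest, at 0.71 (adjusted p = 0.137), without ad-GFP 2.

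Others passed when a single library was left out. St6galnac4 passed without ad-GFP 1 (0.24, adjusted p = 0.0324) or ad-CRE 4 (0.22, 0.0478), the first ID of St6galnac2 (ENSMUSG00000057286) without ad-CRE 1 (0.23, 0.0389), C1galt1 without ad-CRE 4 (-0.08, 0.0375), Galnt1 without ad-GFP 1 (-0.08, 0.045) and Galnt17 without ad-GFP 1 (0.29, 0.0475). Mgat3 passed without ad-GFP 1 (-0.37), ad-GFP 2 (-0.39) or ad-CRE 3 (-0.45, adjusted p = 0.0177). B3galt4 passed without ad-GFP 1 (-0.47), ad-CRE 3 (-0.49) or ad-CRE 4 (-0.46). B3galt6 passed without ad-GFP 2 (0.26) or ad-CRE 4 (0.23), and B3gnt7 without ad-CRE 4 (0.41, adjusted p = 0.0137), whose 2.25 CPM stood below the 4.3 to 4.53 CPM of the other ad-CRE libraries.

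Other small changes turned on the scaling, the filter or the unit. With counts scaled by their totals and with the 5 CPM filter, Cmas (0.09, adjusted p = 0.0756 and 0.0657), Mgat4b (0.06, 0.0963 and 0.0753) and St3gal3 (0.13, 0.0921 and 0.0865) were not called, and Galnt1 (-0.08, 0.0409 and 0.0438), Galnt10 (-0.09, 0.0323 and 0.0377) and C1galt1 (-0.08, 0.0301 and 0.0325) were called lower. On the log2(FPKM + 1) scale Mgat4b (0.06, adjusted p = 0.135), St3gal3 (0.13, 0.144) and Fut4 (0.18, 0.0666) were not called, while Galnt1 (-0.09, 0.0378), Galnt10 (-0.11, 0.0176) and B3galt4 (-0.25, 0.0133) were called lower. Scaling by totals also called B3galt4 (-0.43, adjusted p = 0.0402) and Mgat3 (-0.35, 0.0417) lower. DESeq2 did not call B3gnt5 (0.29, adjusted p = 0.0609), St3gal3 (0.15, 0.0887) or the second ID of St6galnac2 (0.97, 0.0851). Without a filter beyond 1 read, Gcnt2 (-0.08, adjusted p = 0.0743) and the second ID of St6galnac2 (0.96, 0.0581) were not called.

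The 21 members that did not pass the filter were St6gal2, St6galnac1, St6galnac5, St8sia3, St8sia5, Galnt5, Galnt9, Galnt13, Galnt15, Galntl5, Galntl6, Gcnt7, Mgat4c, Mgat4d, Mgat4e, Mgat4f, B3galt2, B3galt9, B3gnt6, Fut2 and Fut7. St8sia3, Galntl5, Galntl6 and Mgat4d had no read in any library. When every gene with at least 1 read was tested, St6gal2 was called higher (log2 3.36, adjusted p = 1.62e-06). St6gal2 passed the usual filter when any 1 ad-GFP library or ad-CRE 4 was left out. Its log2 fold change then lay between 2.95 (without ad-GFP 2) and 4.71 (without ad-GFP 4). With at most 0.186 CPM in ad-GFP libraries, it could pass that filter only through the ad-CRE libraries, so nothing is read from its passing. In the same test Gcnt7 was called higher (17, 8, 22 and 10 reads in ad-CRE, against 10, 5, 4 and 4 reads in ad-GFP libraries, adjusted p = 0.0124). Mgat4f (0, 0, 0 and 1 reads in ad-CRE, against 2, 3, 2 and 3 reads in ad-GFP libraries, adjusted p = 0.0308) and B3galt9 (1, 4, 0 and 1 reads in ad-CRE, against 5, 5, 6 and 5 reads in ad-GFP libraries, adjusted p = 0.0284) were called lower. The other members with reads had at most 8 reads in a library.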

How the data were processed

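Per the labels' protocols an RNeasy kit was used for extraction and a SMARTer mRNA-seq kit for the libraries. The authors deposited 1 table with a whole-number read count and an FPKM value per gene and library, per the file headers. Builds GRCm38 and mm10 come from the submitters' processing notes; aligner, counter and strand setting were not given in the sources read. The authors' deposited log2 fold change, p-value and FDR columns were not used.

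Counts were tested across the whole table with edgeR 4.0.16 (filterByExpr by group, TMM factors, quasi-likelihood test with group as the only term, Benjamini-Hochberg over 13702 genes, threshold 0.05) in R 4.3.3, and the procedure was tested on simulated data. The SE is the log2 fold change divided by the square root of F. Alternatives were DESeq2 1.42.0 and its size factors, total counts, other filters and thresholds, limma 3.58.1 on voom or log2(FPKM + 1) and log2(FPKM + 0.1) values, a replicate block, and leaving out each library. Coordinates and overlaps are from GENCODE M21 (GRCm38), which held all 99 member IDs, all protein-coding. Figures used matplotlib 3.10.9.

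Between replicates of a group, chi-square per degree of freedom was 1.71 to 3.24, above sampling noise. The labels do not call them separate cultures; p-values therefore reflect only the spread among these libraries, possibly technical. Members and lists were chosen with earlier results of these data known. Values in every library are given for Npl, for members past the test with non-overlapping groups, at least 1 log2 unit and a mean log2 CPM of at least 1, and for the 6 with the highest mean FPKM. In each role group the greatest changes and the tested members that did not pass are named, and in each further list the 2 smallest p-values per direction. Other named genes and library values were chosen after their values were seen.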

Additional observations from a re-analysis of the deposited data

Results flagged for a closer look

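In 12 of 156 groups of 4 libraries 1 library of a tested member stood apart from the other 3 by Dixon's test at the 5% level; chance flags about 5% of such groups. In ad-CRE libraries these were St3gal1 in replicate 2 (32.1 CPM), St3gal4 in replicate 2 (9.99 CPM), B3gnt3 in replicate 1 (25 CPM), B3gnt7 in replicate 4 (2.25 CPM) and Fut8 in replicate 1 (27.4 CPM). In ad-GFP libraries they were Neu1 in replicate 2 (67.8 CPM), Npl in replicate 3 (4.09 CPM), St6galnac4 in replicate 1 (9.7 CPM), Galnt10 in replicate 1 (75.8 CPM), Mgat3 in replicate 3 (6.17 CPM), B3gnt9 in replicate 3 (1.04 CPM) and B4galt4 in replicate 1 (4.69 CPM). The flagged values of Npl and B4galt4 lie far below every ad-CRE library of the same gene.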

How the results depend on the processing

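Main counts of members were 37 higher and 19 lower, and ranged over the alternatives other than a fold threshold from 28 (5 CPM in 4 libraries, 57 members tested) to 40 higher and from 18 to 25 lower; with a threshold of 1 log2 unit they were 10 and 7. Leaving out 1 library gave 33 to 40 higher and 18 to 21 lower. The median log2 fold change, 0.158, was 0.091 with no filter beyond 1 read, 0.088 for log2(FPKM + 1) and 0.091 for log2(FPKM + 0.1), and 0.155 to 0.192 with 1 library left out, highest without ad-GFP replicate 1. B3gnt8 turned to -0.172 (adjusted p = 0.0402) and -0.627 (0.0384), and B4galt5 to -0.029 (0.863) and -0.033 (0.853), on the log2(FPKM + 1) and log2(FPKM + 0.1) scales; the cause was not tested. Deviations of same-numbered libraries from their group means correlated at r = 0.0327, -0.0383, -0.0701 and 0.0719. For libraries with unlike numbers r ran from -0.128 to 0.109. A weak pairing could give such values too, so this check cannot settle whether the numbers pair the samples. With a replicate block 36 members were higher and 20 lower, with a median of 0.16. Low-count members such as Neu2 are limited by depth.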
